A study of Mus musculus with 102 samples.

Results

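Epidermal stem cells of aged and adult mice were compared at a single hour of the day, zeitgeber time 12 (ZT12, counted from lights on), in animals fed a control diet. The members are the 8 arrays whose labels give control diet and T12: 4 of mice aged 83 to 97 weeks (called aged here) and 4 of mice aged 47 to 57 weeks (called adult), out of 53 adult and 49 aged arrays in the series. Every array is labelled as Per1-Venus BAC transgenic mice with a background of C57B6/J. The controls therefore carry the reporter too, and it adds a copy of Per1 regulatory DNA; whether the Per1 probe set also reads the reporter was not examined. Both ages ate ad libitum for 25 weeks after an adaptation of 3 weeks, starting at 55 to 69 weeks in the aged group and at 19 to 29 weeks in the adult group. The wider series also holds calorie-restricted (CR) mice, given 30% less food, and the other time points ZT0, ZT4, ZT8, ZT16 and ZT20. The design text gives 1 mouse per diet group killed per day and the same hour for all mice of a day, but which array came from which day, and the sex of the animals, are not given.

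Epidermal stem cells are the keratinocytes of the basal layer and the hair follicle that divide to renew the skin. They carry a circadian clock in which BMAL1 (gene Arntl) and CLOCK drive transcription of the Per and Cry genes, whose proteins repress that drive, while NR1D and ROR factors set the level of Arntl itself. PAR bZIP factors (Dbp, Tef, Hlf) and their competitor NFIL3 pass the rhythm on to D-box elements of output genes. In skin, the clock is known to time DNA replication, metabolism and differentiation over the day.

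No gene passed the test between the ages at ZT12. Of 13383 genes tested, 0 (0%) passed an adjusted p of 0.05 (limma with Benjamini-Hochberg adjustment over all genes), and the smallest adjusted p was 1, so every difference named hereafter is a value that did not pass. At an unadjusted p under 0.05 there were 79 genes (0.59%), of which 19 (0.142%) were higher and 60 (0.448%) lower in aged cells, and 8 genes lay under 0.01. With no difference anywhere, a share of about 0.05 of the genes is expected under 0.05, so these counts are no excess. Why they fell below that share was not tested. The median difference, aged minus adult, was 0.004 log2 units, the median absolute difference was 0.072, and 51.3% of genes were higher in aged cells. The median standard error (SE) of a difference was 0.171.

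The data bound the size of an age difference that could have been missed. For 13152 genes (98.3%) the 95% confidence interval lay within 1 log2 unit, a 2-fold change, on either side of 0. Intervals of 9066 genes (67.7%) lay within 0.5 log2 units. Smaller differences were not resolved. Interval widths rest on 4 arrays per age and on a spread shared by all 24 groups, not on that of ZT12 alone. On control diet, median SDs over genes were 0.167 (adult) and 0.188 (aged) at ZT12, 0.122 in adult cells at ZT20 and 0.362 in adult cells at ZT0. A limma fit of only the ZT12 control-diet arrays put 145 genes under an unadjusted p of 0.05, beside 79 in the shared fit. Neither fit had a gene past the threshold.

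Levels here are log2 values of relative fluorescence, normalised by the authors with RMA. Over the 13383 genes, medians of the 8 arrays ran from 6.904 to 7.023. Keratinocyte markers were high on all of them: Krt14, the basal keratin, at 12.42 to 12.55, Krt5, its partner, at 12.31 to 12.47, Itga6, the integrin used to sort basal cells, at 10.90 to 11.35, and Trp63, the basal transcription factor, at 11.42 to 11.87. Krt1 (11.51 to 12.04) and Krt10 (11.47 to 11.78), keratins of differentiating cells, were also high. Of the bulge markers, Krt15 had a median of 11.94 and Sox9 read 6.29 to 8.00, while Cd34 (3.74 to 4.19), Lgr5 (4.04 to 4.23) and Lhx2 (4.21 to 4.71) stayed under the filter for low values, 4.735. The leukocyte marker Ptprc (3.77 to 4.16), the adipocyte marker Adipoq (4.14 to 4.54) and the senescence marker Cdkn2a (4.28 to 4.59) were also under it and were not tested. Other markers passed it: the haemoglobin gene Hba-a1 at 7.02 to 8.04, the fibroblast collagens Col1a1 at 5.61 to 6.06 and Col3a1 at 4.84 to 5.25, the endothelial Pecam1 at 5.11 to 5.52 and the T cell gene Cd3e at 4.42 to 5.13. Their ranges overlapped between the ages. Over all arrays of the series the brightest Hba-a1 probe set, used here, averaged 7.68 and the others 5.38 and 5.14.

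**Figure D1:**
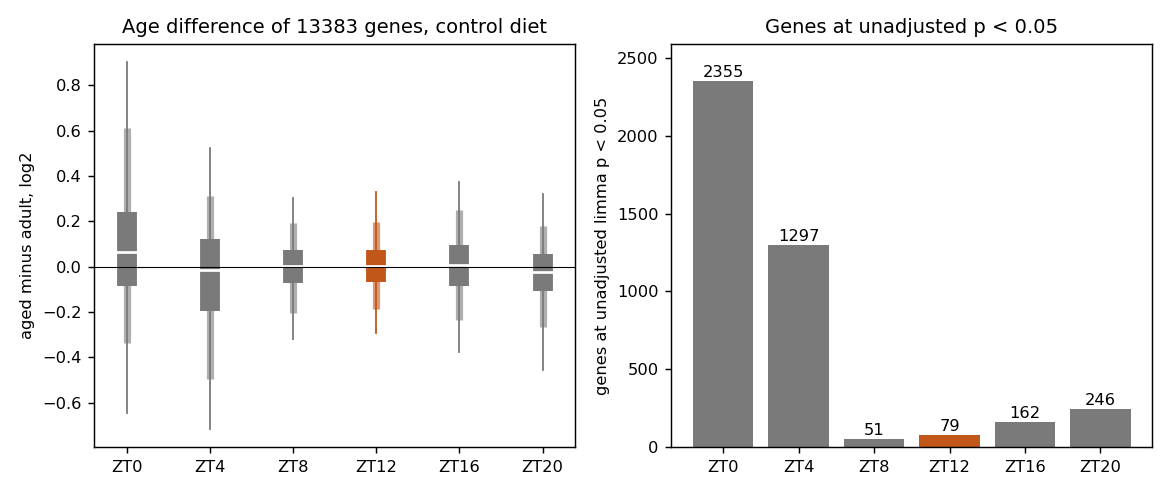
Age differences at each time point on control diet. Left, the differences of 13383 genes, aged minus adult in log2 units: white line, median; thick bar, 25th to 75th percentile; pale bar, 5th to 95th; thin line, 1st to 99th. Right, the number of genes at an unadjusted limma p under 0.05. ZT12 (orange) has 79 such genes and a median absolute difference of 0.072, against 2355 genes and 0.163 at ZT0.

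The pooled arrays showed the same from another side. Arrays of different age differed pairwise by a root mean square of 0.312 log2 units over all genes (mean of 16 pairs, range 0.236 to 0.386). Pairs within the adult group differed by 0.312 (6 pairs, 0.278 to 0.350) and pairs within the aged group by 0.355 (6 pairs, 0.304 to 0.450). The 3 kinds of pair overlapped, and the closest pair of all was adult 4 with aged 2, at 0.236. The least alike were aged 1 and aged 3, at 0.450.

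Clock genes come first, because ZT12 is the hour at which much of the clock stood at an extreme. Group means at ZT12 were the highest of the 6 times in both ages for Per2, Per3 (brightest probe set), Cry2, Dbp, Tef, Hlf and Ciart, and the lowest for Arntl and Nfil3. For 15 of the 18 tested clock genes the RefSeq (GRCm38.p6) promoter set used here holds an entry, and for Per2, Bhlhe40 and Csnk1d none. A promoter here runs from 250 bases before to 50 after a transcription start. An E-box spelled CACGTG, the element that BMAL1 and CLOCK bind, is in the promoter of 4 of the 15 (Per1, Cry1, Tef and Ciart) and in 2349 (7.15%) of all 32851 promoters. The D-box spelled TTATGTAA, searched on both strands, is in 1 of the 15 (Per3) and in 308 (0.938%) of all. For both motifs the clock count is of genes, some with several promoters, and a gene counts if any of them holds the motif. The other count is of single promoters, so the shares are not of the same kind. No overlap between the 2 motifs is possible at these spellings. The windows that follow are shown because these genes stood at or near their daily peak at ZT12 in both ages. They run 5′ to 3′ on the gene's strand, with the motif in capitals.
Per1, E-box 166 bases before the start, chr11:69098756-69098815, plus strand: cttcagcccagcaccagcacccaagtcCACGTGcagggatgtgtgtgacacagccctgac
Tef, E-box 127 bases before the start, chr15:81802519-81802578, plus strand: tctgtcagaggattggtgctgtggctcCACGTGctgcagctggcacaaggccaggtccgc
Ciart, E-box 116 bases before the start, chr3:95882312-95882371, minus strand: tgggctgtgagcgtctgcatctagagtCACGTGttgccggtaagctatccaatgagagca
Per3, D-box 205 bases before the start, chr4:151044836-151044897, minus strand: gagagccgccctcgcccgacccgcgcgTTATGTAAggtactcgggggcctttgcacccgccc
A match is a match of letters and not evidence of binding. The Ciart promoter holds 3 copies of the E-box and the Per3 promoter 2 of the D-box.

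Of the 18 clock genes tested, 0 passed the threshold, and on all 18 the arrays of the 2 ages overlapped. Differences ran from -0.13 (Nr1d2) to 0.31 (Arntl), with 10 of 18 above 0 and a median of 0.03, beside 0.004 over all genes tested. The spread between arrays of 1 age, the pooled SD, had a median of 0.22 over these genes and 0.190 over all.

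The Per genes encode the repressor arm. Per1 read 9.50, 9.27, 9.69 and 9.52 on adult arrays 1 to 4 and 9.37, 9.56, 9.03 and 9.60 on aged arrays 1 to 4, and only aged 3 lay below every adult array. Its difference was -0.11 ± 0.24 (SE). Per2 read 7.86, 7.54, 8.31 and 8.47 in adult and 7.75, 8.31, 7.72 and 8.15 in aged cells. High and low arrays occurred in both ages, and the difference was -0.06 ± 0.19. Per3 read 9.33, 8.69, 9.36 and 9.08 in adult and 8.88, 9.20, 8.88 and 9.29 in aged cells. The ages again interleaved, with a difference of -0.05 ± 0.32.

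Per3 is read by 5 probe sets, and they differed in sign. The brightest, used here, gave -0.05. Another gave -0.60, with adult arrays at 8.07, 7.40, 7.79 and 7.68 and aged arrays at 6.82, 7.62, 6.62 and 7.47, and a further one gave 0.21. The probe set at -0.60 was also higher at ZT8 (7.19) than at ZT12 (7.13) in aged cells, so the daily peak of Per3 at ZT12 holds for the brightest probe set and not for all 5.

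Cry1 and Cry2 encode the partners of the PER proteins. Cry1 differed by 0.12 ± 0.36 and Cry2 by -0.10 ± 0.19. Cry2 was among the tightest clock genes, at 8.56 to 8.85 in adult and 8.50 to 8.77 in aged cells. Ciart, another repressor of BMAL1, read 7.27 to 8.08 in adult and 7.40 to 7.92 in aged cells, a difference of -0.10 ± 0.16. Csnk1d (0.07 ± 0.19) and Csnk1e (0.06 ± 0.18), kinases that mark PER for degradation, lay near 0.

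The output factors stood near the top of their daily range in both ages. Dbp read 8.59, 8.95, 9.11 and 7.83 in adult and 9.07, 8.51, 8.77 and 8.73 in aged cells. Adult 4 was the lowest of the 8, and aged arrays lay inside the adult range, with a difference of 0.15 ± 0.31. Its group mean was 5.72 at ZT0 and 8.62 at ZT12 in adult cells, and 5.87 and 8.77 in aged cells, a range of 2.90 in each age. Tef differed by -0.04 ± 0.15 and Hlf by 0.16 ± 0.19. Nr1d2, the REV-ERB repressor of Arntl, differed by -0.13 ± 0.21, and Rora, the opposing activator, by 0.002 ± 0.145.

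**Figure D2:**
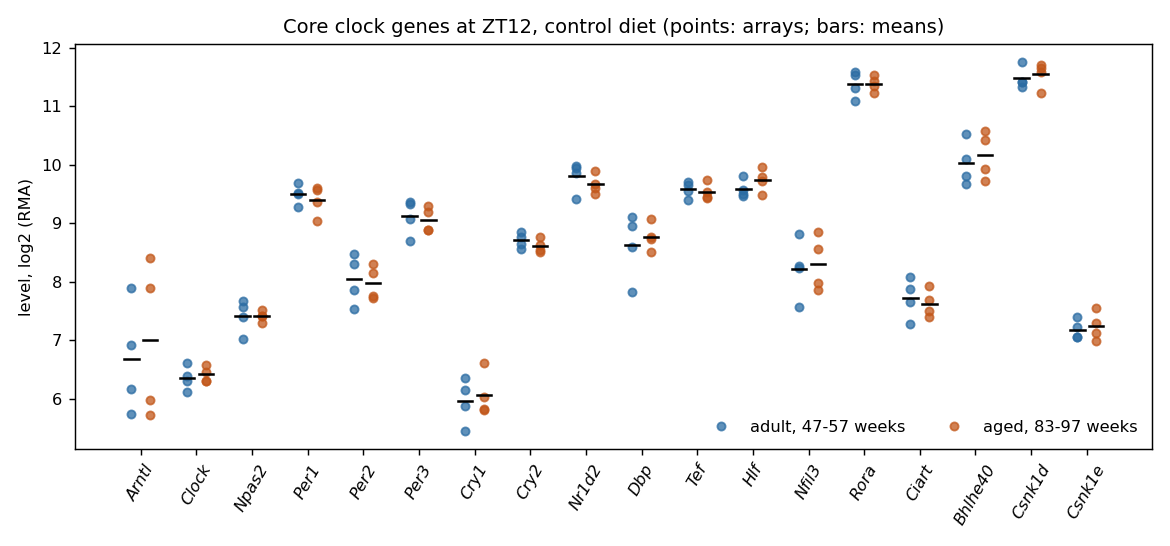
Core clock genes at ZT12 on control diet. Each point is an array (blue, adult; orange, aged; 4 per age), each bar a group mean, in log2 RMA levels on a linear axis. Levels of the 2 ages overlap for all 18 genes, and Arntl has the widest spread within each age, from 5.73 to 7.90 in adult and from 5.72 to 8.40 in aged cells.

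In the activator arm, Arntl had its lowest group mean of the day at ZT12 in both ages. Arntl, which encodes BMAL1, read 6.92, 5.73, 6.16 and 7.90 on the adult arrays and 8.40, 7.89, 5.72 and 5.97 on the aged arrays. The 3 highest arrays were adult 4, aged 1 and aged 2, and the 5 others spread over both ages. The difference was 0.31 ± 0.46, with a 95% interval from -0.60 to 1.23, so a change of 1 log2 unit upwards was not bounded. The other Arntl probe set read 5.99, 5.91, 6.28 and 6.38 in adult and 6.52, 6.40, 6.02 and 6.01 in aged cells, a difference of 0.10. It put the same 3 arrays on top over a narrower range. Both probe sets had their lowest group mean at ZT12 in both ages. That of the other one was 8.02 at ZT0 and 6.14 at ZT12 in adult cells, and 7.93 and 6.24 in aged cells.

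Nfil3, the competitor of DBP at D-boxes, read 8.27, 7.57, 8.23 and 8.82 in adult and 8.56, 8.85, 7.97 and 7.85 in aged cells. Bhlhe40, an E-box repressor, read 9.80, 9.67, 10.09 and 10.53 in adult and 10.43, 10.58, 9.92 and 9.72 in aged cells. In both genes adult 4, aged 1 and aged 2 were again the 3 highest arrays. Their age differences were 0.08 ± 0.30 and 0.14 ± 0.26. Clock (0.06 ± 0.21) and Npas2 (-0.002 ± 0.156), which encode the partners of BMAL1, showed no such split.

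**Figure D3:**
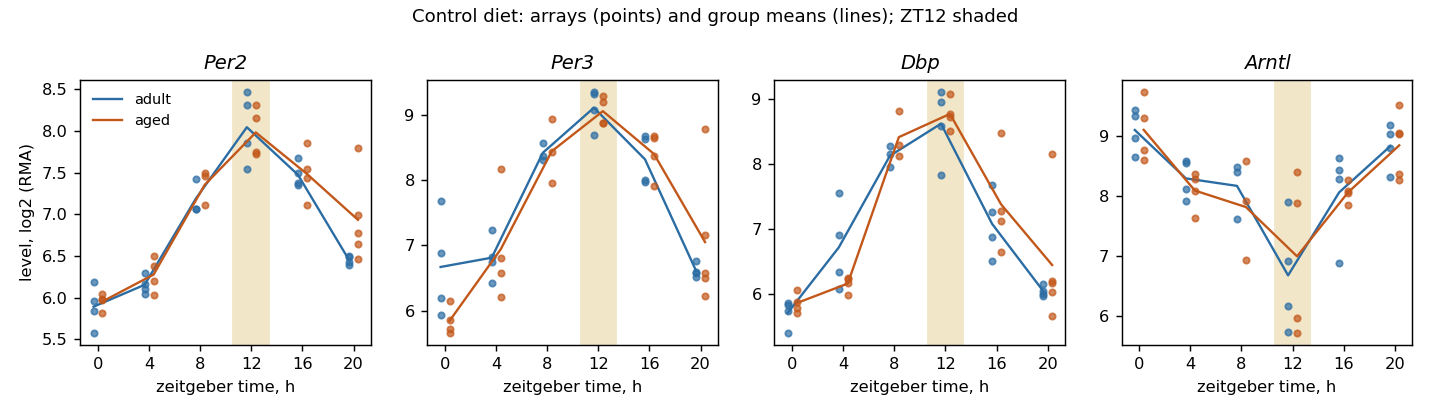
Daily profiles of Per2, Per3, Dbp and Arntl on control diet, in log2 RMA levels against zeitgeber time in h. Points are arrays and lines join group means (blue, adult; orange, aged; shifted sideways for sight), and ZT12 is shaded. Group means of Per2, Dbp and the brightest Per3 probe set are highest and that of Arntl is lowest at ZT12 in both ages, with Dbp means of 8.62 and 8.77. The aged ZT20 array with Per3 at 8.79 and Dbp at 8.16 stands apart from its group.

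The genes that the naming rule took as nearest to the threshold were lower in aged cells. That rule selected genes at an unadjusted p under 0.01 whose 4 aged arrays did not overlap the 4 adult ones. It found 5, of which 4 had a gene name, and none was higher in aged cells. Over all 13383 genes, 120 (0.897%) had arrays that did not overlap, 44 (0.329%) with aged above and 76 (0.568%) with aged below.

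Nadsyn1 encodes NAD synthetase, which makes the last step to NAD from nicotinic acid. It read 5.29, 5.31, 5.32 and 5.17 in adult and 4.85, 5.06, 4.86 and 4.97 in aged cells. Every aged array was below every adult one, and the difference was -0.33 ± 0.12 (adjusted p = 1 with limma and Benjamini-Hochberg). Under CR at the same hour the difference of Nadsyn1 was -0.25 ± 0.12, and at the other control-diet times it ran from -0.15 (ZT16) to 0.24 (ZT0). Both ages sat close to the filter for low values.

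Npr1, the guanylyl cyclase receptor of atrial natriuretic peptide, read 4.94, 4.86, 4.79 and 4.95 in adult and 4.41, 4.71, 4.57 and 4.56 in aged cells. The aged arrays were all lower, at levels around the filter, with a difference of -0.32 ± 0.12. Pgm5, a protein of cell junctions related to phosphoglucomutase, read 5.51, 5.66, 5.57 and 5.67 in adult and 5.39, 5.26, 5.42 and 5.21 in aged cells. Its difference was -0.28 ± 0.10. Baiap3, a regulator of vesicle release, read 5.82, 5.86, 5.70 and 6.31 in adult and 5.59, 5.56, 5.60 and 5.52 in aged cells, a difference of -0.36 ± 0.13. Adult 4 stood above the rest, and the lowest adult array exceeded the highest aged one by little. Under CR at ZT12, Npr1 differed by -0.13, Pgm5 by 0.04 and Baiap3 by 0.01, in the same order of subtraction.

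Gene lists gave no count past the threshold either. Of 645 tested genes on 44 lists of pathways and cell types, 0 passed and 5 (0.775%) lay under an unadjusted p of 0.05, beside 0.59% of all genes. List medians ran from -0.18 (3 adipocyte markers) to 0.13 (wound and stress keratins), with 26 above 0, 14 below and 4 at 0. These 5 genes were Mogat1, which makes diacylglycerol in sebaceous cells (-0.31 ± 0.12), Krt33a, a hair keratin (0.41 ± 0.17), Gsta4, which detoxifies lipid peroxidation products (0.36 ± 0.16), Gpx2, a glutathione peroxidase (-0.30 ± 0.14), and Ltbp1, which tethers latent TGF-beta (-0.45 ± 0.22, although its 2 dimmer probe sets gave 0.14 each and the mean of the 3 gave -0.06). In each of them at least 1 array of one age lay within the range of the other.

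**Figure D4:**
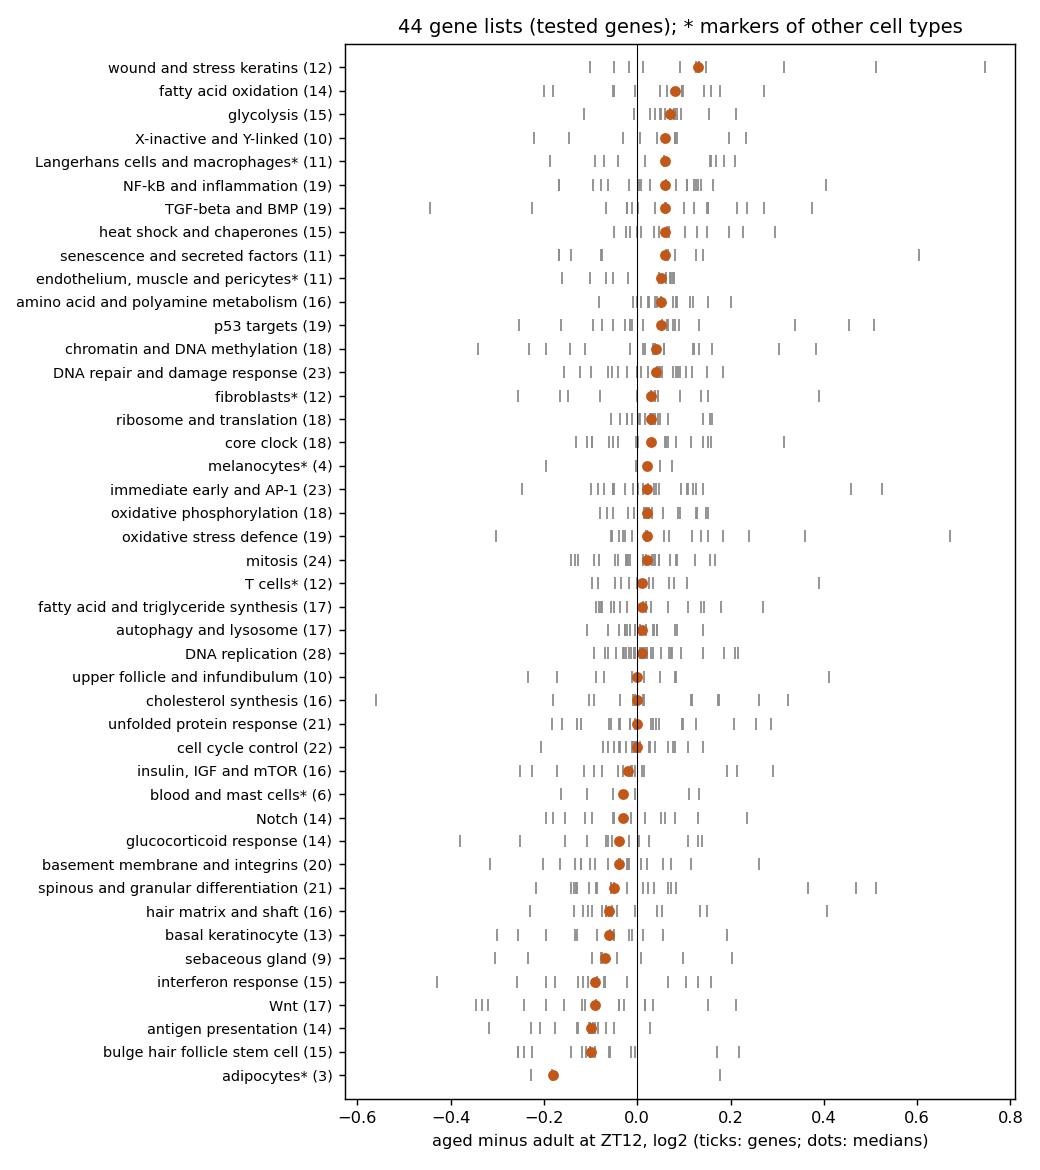
Age differences at ZT12 on control diet for the tested genes of 44 lists, aged minus adult in log2 units. Each tick is a gene, each dot the median of its list, with the number of tested genes in brackets, and asterisks mark lists of other cell types. Medians lie between -0.18 and 0.13 and no gene passed the threshold.

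Proliferation genes had medians close to 0. The list of DNA replication genes had 17 of 28 higher in aged cells and a median of 0.01, and the mitosis list had 13 of 24 higher and a median of 0.02. Mcm4, a subunit of the replicative helicase, read 8.55, 8.30, 8.51 and 8.36 in adult and 8.47, 8.88, 8.79 and 8.44 in aged cells. Aged 2 and aged 3 were the highest, the other aged arrays lay within the adult range, and the difference was 0.22 ± 0.22. Rrm2, which supplies deoxynucleotides, differed by 0.21 ± 0.24 and Pola1, the primase-associated polymerase, by 0.19 ± 0.24. Among mitotic genes Prc1, which bundles the spindle midzone, differed by 0.16 ± 0.18, Kif20a, a cytokinesis motor, by -0.14 ± 0.19 and Aurka, a spindle kinase, by -0.13 ± 0.20. On the cell cycle control list 9 of 22 were higher, from Ccne1, the G1/S cyclin (-0.21 ± 0.16), to Cdkn2b, a CDK inhibitor (0.14 ± 0.18).

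DNA repair genes had 14 of 23 higher and a median of 0.04, between Fanca (-0.16 ± 0.14) of the Fanconi pathway and Chek1 (0.18 ± 0.20), the replication checkpoint kinase. Atm, the kinase that senses double-strand breaks, differed by -0.12 ± 0.17. The p53 targets had 11 of 19 higher and a median of 0.05. Pmaip1, which encodes the pro-apoptotic NOXA, read 9.13, 8.89, 8.79 and 9.46 in adult and 9.79, 9.73, 9.56 and 9.21 in aged cells. The highest 3 arrays were aged, but aged 4 fell below adult 4, and the difference was 0.51 ± 0.27. Gadd45a, a stress-induced gene, differed by 0.45 ± 0.48, and its 3 highest arrays were aged 1 (8.71), aged 2 (8.66) and adult 4 (8.42). Cdkn1a, which encodes p21, differed by 0.08 ± 0.15.

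Senescence and secreted factors had 6 of 11 tested members higher and a median of 0.06. Mmp3, a matrix metalloproteinase, read 5.40, 5.69, 5.61 and 5.77 in adult and 6.82, 6.03, 6.02 and 6.01 in aged cells. All aged arrays were above all adult ones, with aged 1 standing apart, and the difference was 0.60 ± 0.38, or 0.40 without aged 1. Mmp10, a related protease, went the other way without overlap, by -0.14 ± 0.24. These were 2 of the 3 list genes (0.465% of 645) whose arrays did not overlap, beside 0.897% of all genes. The other was Hells, a chromatin remodeller of DNA methylation, at 5.22 to 5.47 in adult and 5.55 to 5.84 in aged cells; its dimmer probe sets gave 0.07 and -0.08, beside 0.30 for this one. The chromatin list had 12 of 18 higher and a median of 0.04. Its members, of which Tet2 and Sirt1 were named after their values were seen, ran from Tet2, which oxidises methylcytosine (-0.34 ± 0.38), to Sirt1, an NAD-dependent deacetylase (0.38 ± 0.31), with Lmnb2, a lamin, at -0.23 ± 0.18 and Dnmt3a, a DNA methyltransferase, at -0.20 ± 0.15. Dimmer probe sets of Dnmt3a gave -0.10, 0.01, 0.02 and 0.02, and that of Lmnb2 gave -0.07.

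Stress and protein-quality genes followed the same pattern of small medians. In the unfolded protein response 10 of 21 were higher (median 0.00), with Hspa5, the ER chaperone BiP, at 0.25 ± 0.22, Atf4, its transcription factor, at 0.21 ± 0.17, and Sel1l, an adaptor of ER-associated degradation, at -0.18 ± 0.15. Chaperones had 11 of 15 higher and a median of 0.06, among them Dnaja1 (0.20 ± 0.18) and the cold-inducible Cirbp (0.30 ± 0.33). Oxidative stress defence had 12 of 19 higher and a median of 0.02. Srxn1, a sulfiredoxin induced by NRF2, read 6.34, 6.73, 7.02 and 7.36 in adult and 8.04, 7.48, 7.78 and 6.83 in aged cells. The 3 highest arrays were aged, aged 4 lay in the middle of the adult range, and the difference was 0.67 ± 0.39. Another Srxn1 probe set of nearly the same brightness gave 0.19, and the mean of all its probe sets 0.27.

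Metabolic lists had medians from 0.00 to 0.08. Glycolysis had 13 of 15 genes higher in aged cells, beside 51.3% of all genes, with a median of 0.07. The sign of that median turned when adult 1 (-0.04) or aged 3 (-0.01) was left out and with array weights (-0.01), and it was 0.16 without aged 4. The list mean overlapped widely, at 9.65, 10.06, 9.89 and 10.35 on adult arrays and 10.21, 10.01, 10.27 and 9.72 on aged arrays. Pdk1, which closes pyruvate's way into the mitochondrion, differed by 0.21 ± 0.26, Pgk1, a glycolytic kinase, by 0.15 ± 0.21, and Gapdh by 0.08 ± 0.12. Oxidative phosphorylation had 13 of 18 higher (median 0.02) and fatty acid oxidation 9 of 14 (median 0.08), with the carnitine carrier Slc25a20 at 0.27 ± 0.27 and the dehydrogenase Acadm at 0.18 ± 0.16. Cholesterol synthesis had 8 of 16 higher and a median of 0.00, and its members spread the most of these lists. Hmgcs1, an early enzyme of the pathway, read 7.62, 7.08, 7.28 and 7.63 in adult and 7.06, 7.16, 6.17 and 6.98 in aged cells, where aged 3 was far below the rest, and differed by -0.56 ± 0.43. Sqle, a later enzyme, differed by 0.32 ± 0.48 in the opposite direction.

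Medians below 0 were found for the bulge, basal and Wnt lists, and a median of 0.00 for the upper follicle list (5 of 10 higher, with Plet1, a surface marker of the infundibulum, at 0.41 ± 0.40). The bulge list had 2 of 15 members higher in aged cells and a median of -0.10, the basal keratinocyte list 3 of 13 and -0.06, and the Wnt list 5 of 17 and -0.09. Means over the bulge list were 8.05, 7.74, 7.75 and 7.78 on adult arrays and 7.67, 8.02, 7.59 and 7.68 on aged arrays. Leaving out 1 array moved the Wnt median from -0.16 (without aged 2) to -0.02 (without aged 4), and array weights moved the bulge median to -0.03. In the bulge list means, aged 2 was second to adult 1 and the 3 other aged arrays were the lowest, so the ages overlapped through 1 aged array. Of the bulge list members, Cxcl14, a chemokine, differed by -0.26 ± 0.20, Dkk3, a secreted Wnt modulator, by -0.24 ± 0.17 and Id2, an inhibitor of bHLH factors, by -0.22 ± 0.20. Axin2, a feedback target of Wnt signalling, read 8.75, 8.23, 8.39 and 8.30 in adult and 7.86, 8.18, 7.97 and 8.28 in aged cells. Only aged 4 reached the adult range, and the difference was -0.35 ± 0.21. Nkd2, another Wnt antagonist, differed by -0.32 ± 0.20. Sostdc1, which blocks BMP and Wnt ligands, differed by -0.30 ± 0.27, and Trp63 by -0.13 ± 0.12.

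Adhesion, differentiation and Notch genes had medians between -0.05 and -0.03. Basement membrane and integrin genes had 6 of 20 higher (median -0.04), with the collagen IV chain Col4a2 at -0.31 ± 0.25 and the integrin Itga3 at -0.17 ± 0.17. Spinous and granular differentiation had 9 of 21 higher (median -0.05), between Dsc1, a desmosomal cadherin (-0.22 ± 0.15), and Sprr1a, a precursor of the cornified envelope (0.51 ± 0.61). Ovol1, a factor that promotes exit from the basal state, differed by 0.47 ± 0.42. In the Notch list Hes1, a target, differed by 0.23 ± 0.22 and Dll1, a ligand, by -0.20 ± 0.19.

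Antigen presentation was the only one of 44 lists whose mean did not overlap between the ages. Whether 1 list of 44 is more than chance gives was not tested. The list mean read 8.56, 8.65, 8.63 and 8.52 on adult arrays and 8.40, 8.52, 8.46 and 8.49 on aged arrays, where the nearest pair, adult 4 and aged 2, agree at 2 decimals. In this list 1 of 14 genes was higher in aged cells and the median was -0.10, beside 51.3% and 0.004 over all genes tested, and 0 of 14 genes passed. Psmb9, an immunoproteasome subunit, differed by -0.21 ± 0.14, Tapbp, the chaperone tapasin, by -0.18 ± 0.12 and Nlrc5, the activator of class I genes, by -0.23 ± 0.22. Dimmer probe sets of Psmb9 gave 0.00 and -0.11, and that of Tapbp gave -0.15. H2-Ab1, a class II chain, had the largest difference of the list with all arrays in the fit, -0.32 ± 0.46, from 6.68 to 7.70 in adult and from 6.20 to 7.23 in aged cells. The difference was -0.08 without aged 1 and -0.18 as the mean of all probe sets, and that of Nlrc5 was -0.02 without aged 3. Class II genes are made by Langerhans cells as well. Markers of Langerhans cells and macrophages had 7 of 11 higher in aged cells and a median of 0.06, Cd207 read 4.70 to 4.90 and Ptprc 3.77 to 4.16 over the 8 arrays, and the part of such cells in the list was not tested. In bulk samples, fewer cells of a type and less RNA per cell cannot be told apart.

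The interferon list had 4 of 15 genes higher and a median of -0.09, with overlapping means of 6.71 to 7.01 in adult and 6.61 to 6.92 in aged cells. Oasl2, an interferon-induced gene, differed by -0.43 ± 0.32. The list of inflammation and NF-kB had 13 of 19 higher and a median of 0.06, with the cytokine Il18 at 0.40 ± 0.26. Markers of other cell types had medians of 0.01 (T cells), 0.02 (melanocytes), 0.03 (fibroblasts), 0.05 (endothelium, muscle and pericytes) and -0.03 (blood and mast cells). Thy1, found on T cells and fibroblasts, differed by 0.39 ± 0.32 and Itgax, a dendritic cell integrin, by 0.16 ± 0.12.

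Arrays of 1 age differed among themselves by as much as arrays of different age, and some of that spread was shared by many genes. The wound and stress keratin list had the highest median, 0.13, with 9 of 12 higher. Krt16, a keratin of wounded epidermis, read 7.22, 7.21, 7.58 and 9.08 in adult and 9.36, 9.53, 8.24 and 6.94 in aged cells. Adult 4, aged 1 and aged 2 were high while aged 4 was the lowest of all, and the difference was 0.75 ± 0.64. Fosl1, an AP-1 subunit, read 9.93, 9.71, 10.11 and 11.05 in adult and 10.97, 11.09, 10.35 and 10.23 in aged cells, with the same 3 arrays on top and a difference of 0.46 ± 0.36. Hbegf, an EGF receptor ligand, had them on top too (0.31 ± 0.25), and Dusp6, a feedback phosphatase of ERK, differed by 0.53 ± 0.51.

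That recurrence was counted after the values had been seen, and for this set of 3 arrays only. Adult 4, aged 1 and aged 2 were the 3 highest arrays for 526 of 13383 genes (3.93%). On the lists they were so for 6 of 19 genes of NF-kB and inflammation (31.6%) and 6 of 23 of the immediate early and AP-1 genes (26.1%). The count was 5 of 19 for p53 targets (26.3%) and 5 of 19 for TGF-beta and BMP genes (26.3%). It was 3 of 11 for senescence and secreted factors (27.3%) and 3 of 18 for clock genes. Some of these lists share genes, among them Tnf and Cdkn1a. The same 3 arrays were highest for 0 of 28 replication genes, 0 of 24 mitosis genes and 0 of 17 Wnt genes. Nr4a1, an immediate early nuclear receptor, read 11.18, 11.29 and 11.17 on those 3 arrays and 10.71 to 10.91 on the others. Tnfaip3, a brake on NF-kB, read 11.09, 10.93 and 11.12 on them and 10.29 to 10.73 on the others. In these genes the arrays of both ages mixed, and their age differences were 0.14 ± 0.16 and -0.02 ± 0.27. Tsc22d3, a glucocorticoid target, did not follow those arrays, with 9.85, 9.38, 10.27 and 9.91 in adult and 8.86, 9.34, 9.63 and 10.05 in aged cells (-0.38 ± 0.29).

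**Figure D5:**
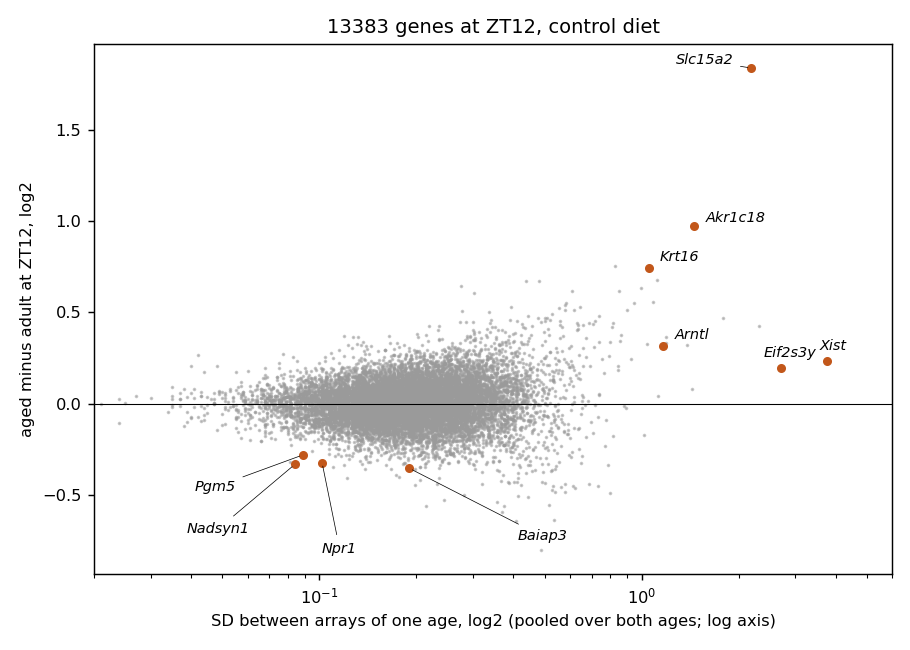
Age difference at ZT12 (aged minus adult, log2, linear axis) against the pooled SD between arrays of one age (log2 units, log axis) for 13383 genes (grey). Named genes are orange. Slc15a2 has the largest difference, 1.84, at an SD of 2.19, whereas the 4 genes named by rule have differences from -0.36 to -0.28.

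Some genes of wide spread or large difference were named after their values were seen. Slc15a2, a peptide transporter, had the only difference over 1 log2 unit. It read 9.71, 4.29, 8.05 and 4.37 in adult and 8.70, 9.53, 6.27 and 9.30 in aged cells. Values near background occurred on adult 2 and adult 4 only, while the other adult arrays lay within or above the aged range, and the difference was 1.84 ± 1.24. Its 2 dimmer probe sets stayed between 3.92 and 5.07 on all 8 arrays. Akr1c18, a progesterone-metabolising enzyme, read 8.83 on aged 2 and 4.46 to 5.28 on the 7 other arrays. Lor, which encodes the cornified envelope protein loricrin, read 9.18 on adult 3, 5.65 to 6.09 on the other adult arrays and 6.82 to 7.32 on the aged arrays, a difference of 0.36 ± 0.75. The largest difference downwards was that of Rb1cc1, an autophagy scaffold, at 5.68 to 6.77 in adult and 4.97 to 5.95 in aged cells (-0.80 ± 0.38).

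Sex-linked genes had the 3 widest spreads between arrays of one age. Xist, made from the inactive X chromosome, read 11.37 and 11.29 on adult 1 and 3 and 11.31 and 11.23 on aged 2 and 4, against 4.49 to 5.37 on the 4 others. Eif2s3y, on the Y chromosome, read 8.78 to 9.04 on those 4 others and 3.93 to 4.37 on the first 4. Each age thus had 2 arrays of either kind. With this contrast as a covariate in the limma fit, 0 genes passed and 80 lay under an unadjusted p of 0.05.

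The age difference at ZT12 was also set against that at other times. The number of genes at an unadjusted p under 0.05 was 2355 (17.6%) at ZT0, 1297 (9.69%) at ZT4, 51 (0.381%) at ZT8, 162 (1.21%) at ZT16 and 246 (1.84%) at ZT20. Those past the threshold were 6 (0.0448%) at ZT0 and 0 (0%) at each of the others. Spread within a group was uneven: the median SD over genes was 0.167 in adult and 0.188 in aged cells at ZT12, whereas over all 24 groups it ran from 0.122 to 0.362, the highest being adult cells at ZT0. The difference at ZT12 was tested against the mean of the 5 other times in the same limma fit. It gave 0 genes (0%) past the threshold and 87 (0.65%) at an unadjusted p under 0.05. One aged ZT20 array stood apart, with Per2 at 7.79, Per3 at 8.79 and Dbp at 8.16, against 6.46 to 6.99, 6.23 to 7.16 and 5.67 to 6.21 on the 4 others. Without it the counts were 0 and 86, and without the ZT0 arrays 0 and 79.

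The 4 genes with the smallest p in that comparison were Npr1, Olfml2a, Nadsyn1 and Plekhh2, none past the threshold. Olfml2a, an extracellular matrix protein, differed by -0.45 ± 0.16 at ZT12 and by 0.01 to 0.20 at the other times, a gap of -0.56 ± 0.18. Npr1 had a gap of -0.44 ± 0.13, Nadsyn1 of -0.37 ± 0.14 and Plekhh2, a cytoskeletal adaptor, of -0.37 ± 0.14. Adjusted p was 1 for each with limma and Benjamini-Hochberg adjustment.

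The 6 genes that passed at ZT0 were Fbxw9, Antkmt, C2cd4b, Zdhhc13, Lsm7 and Dcbld2. Antkmt, a mitochondrial lysine methyltransferase, differed by 1.09 at ZT0 and by -0.04 ± 0.23 at ZT12. Dcbld2, a membrane receptor, differed by -0.88 at ZT0 and by 0.10 ± 0.20 at ZT12. Lsm7, an RNA-processing protein, differed by 0.66 and -0.15, Fbxw9, an F-box protein, by 0.56 and -0.11, C2cd4b by 0.63 and 0.07, and the palmitoyltransferase Zdhhc13 by -0.62 and 0.04. The change of the age difference between these hours, tested over all genes and added after the data were seen, gave 0 genes (0%) past the threshold, 965 (7.21%) at an unadjusted p under 0.05 and a smallest adjusted p of 0.559 (Fbxw9, limma). An age effect called at ZT0 was therefore not shown to differ from that at ZT12.

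Under CR at ZT12, 0 genes (0%) passed for age and 291 (2.17%) lay under an unadjusted p of 0.05. The difference of the age effect between diets gave 0 genes (0%) past the threshold and 101 (0.755%) under an unadjusted p of 0.05. Smallest p values were those of Rcan3, a calcineurin regulator (0.22 ± 0.21 on control diet, -0.69 ± 0.20 under CR), Slc2a6, a glucose transporter of lysosomes (-0.16 ± 0.10 and 0.29 ± 0.10), Tefm, which elongates mitochondrial transcripts (0.34 ± 0.15 and -0.28 ± 0.14), and Ankrd6, a Wnt pathway scaffold (0.06 ± 0.12 and -0.38 ± 0.11). Their diet gaps were 0.92 ± 0.29, -0.45 ± 0.14, 0.61 ± 0.21 and 0.45 ± 0.16, with an adjusted p of 1 for each.

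Insulin, IGF and mTOR genes, a nutrient-sensing pathway tied to ageing, had 5 of 16 higher in aged cells at ZT12 and a median of -0.02. Igf1, its ligand, read 5.46, 5.89, 6.27 and 5.78 in adult and 6.38, 6.00, 5.98 and 6.20 in aged cells. Aged 1 was the highest and adult 1 the lowest, and the difference was 0.29 ± 0.21.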

How the data were processed

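Levels of 45140 probe sets were taken as deposited: log2 values made by the authors with RMA (background correction, quantile normalisation and summary per probe set), per the submitters' processing notes; no version and no genome build are given in the sources used here. Per the labels' protocols, cDNA from 25 ng of total RNA was amplified over 17 cycles and 8 µg was labelled. Probe sets with 1 gene symbol (28898) were kept, 551 with several and 15588 with none were left out, and the brightest per gene over all arrays of the series gave 17097 genes. Genes with a mean of at least 4.735, the 30th percentile, were tested (13383). Quantile normalisation removes any shift common to most genes. Values near background understate a difference, and the number of arrays limits the precision.

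The fit was limma 3.58.1 in R 4.3.3 on 24 group means of age, diet and time over all arrays, which share 1 estimate of the spread, with Benjamini-Hochberg adjustment and an adjusted p of 0.05. It was also run on simulated data with independent noise and 1 spread per gene in all groups. The real groups differ in spread, so that run cannot check the interval widths at ZT12. The members and the 44 lists (821 genes, 730 matched, 645 tested) were chosen with earlier results of these data known. The labels number replicates but do not state for each array that it is a separate animal, so p-values measure the spread between these samples. Genes were named by rule: up to 12 per direction past the threshold or else at an unadjusted p under 0.01 without overlap, all clock genes, up to 3 per list and 4 per comparison of age effects, without transcript and clone names. Others, among them H2-Ab1, Mmp10, Sprr1a and Cdkn1a, were not named by the rule, and their values were known. Not all of these others are marked where they are given. Same-numbered arrays of the 2 ages did not deviate together (r from -0.61 to -0.14), so numbers were not taken as pairs. Alternatives covered the arrays in the fit, priors, weights, filters, probe sets, centring, the sex-linked covariate and leaving out each of the 8 arrays.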

Additional observations from a re-analysis of the deposited data

Results flagged for a closer look

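In 10 of 204 groups of 4 arrays (the genes given with values, at 2 ages, 4.9%), 1 array lay far from its 3 group mates, with a Dixon's ratio above its 95% critical value. Chance alone gives about 1 in 20 for genes chosen without regard to their values. Some of these genes, such as Akr1c18 and Lor, were named after their values were seen, so the share cannot be set against chance. Aged 1 had the highest Mmp3, at 6.82 against 6.01 to 6.03 on the others of its age, and the lowest Dkk3, at 6.25 against 6.64 to 6.69. Aged 2 had the highest Akr1c18, at 8.83 against at most 5.00, and the highest Slc2a6, at 5.71 against 5.50 to 5.53. Aged 3 was the highest for Gsta4, at 6.44 against 5.58 to 5.71, and for Acadm, at 9.42 against 9.01 to 9.05. In adult cells, array 1 was the lowest for Itgax, at 4.88 against 5.17 to 5.20. Adult 2 was the lowest for Atm, at 8.15 against 8.66 to 8.74, and for Hes1, at 7.36 against 7.81 to 7.85. Adult 3 had the highest Lor, at 9.18 against 5.65 to 6.09.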

How the results depend on the processing

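Under 20 alternatives, 2 of them chosen after seeing the data, no count past the threshold left 0 for the age effect, for its comparison with the other times (18 alternatives) or with CR (17), nor for the list genes. The smallest adjusted p stayed at 1 except for the comparison with other times under array weights (0.563). Genes at an unadjusted p under 0.05 numbered 39 above the 50th percentile of levels, 48 with arrays centred on the median, 145 in a fit of only the 8 arrays, 187 without the filter and 208 with array weights, and 57 to 129 leaving out 1 of the 8 arrays in turn (129 without aged 2, 121 without aged 4). A replicate block on the 8 arrays gave 0 genes past the threshold and 76 under an unadjusted p of 0.05, and the numbers did not pair the arrays. Comparison with other times gave 37 to 790 such genes, the latter with array weights. The 4 genes named by rule kept their sign under every alternative run, but that rule had asked for arrays that did not overlap. Leaving out or reweighting arrays could therefore not have turned their sign. Of all genes followed, 84 kept their sign and 18 did not. The mean of all probe sets gave -0.049 for Clock, -0.005 for Csnk1e and -0.033 for Rora, array weights gave -0.084 for Lor and -0.010 for Rora, and centring gave 0.001 for Npas2. Leaving out 1 array in turn gave ranges across 0 for Akr1c18 (-0.038 to 1.371), Ankrd6 (-0.028 to 0.160), Arntl (-0.154 to 0.740), Ciart (-0.248 to 0.022), Clock (-0.019 to 0.146), Cry1 (-0.063 to 0.248), Csnk1e (-0.041 to 0.148), Dbp (-0.111 to 0.316), Gapdh (-0.001 to 0.156), Nfil3 (-0.135 to 0.281), Npas2 (-0.134 to 0.083), Per1 (-0.182 to 0.012), Per2 (-0.227 to 0.080), Per3 (-0.195 to 0.028), Rora (-0.095 to 0.068), Tef (-0.110 to 0.004) and Tnfaip3 (-0.158 to 0.116). The cause was not tested. Medians of 27 of 44 lists were above 0 under some fits and below 0 under others. The mean of all probe sets also moved Atf4 to 0.06, Dsc1 to -0.10, Igf1 to 0.09, Nkd2 to -0.11, Psmb9 to -0.11 and Rcan3 to 0.04.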
